A study of Mus musculus with 12 samples.

Results

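The activin and inhibin genes measured in auditory cortex slices are 3 genes for the subunit chains (Inhba, Inhbb and Inha), the gene of their binding protein follistatin (Fst) and 5 receptor genes (Acvr1, Acvr1b, Acvr1c, Acvr2a and Acvr2b). The 9 genes were taken by symbol from the 20989 gene loci with an expression value in each library, and each has 1 locus. No measured value was used as a filter, but the list was chosen with earlier results of these data known. Coronal slices 350 µm thick were cut from C57bl6/J mice at 4 weeks of age, and the hemispheres of a slice were separated at the midline. After 15 min of recovery and 45 min in artificial cerebrospinal fluid (aCSF), the control hemisphere spent 1 h in fresh aCSF. The complementary hemisphere spent 1 h in cocktail aCSF, which held (-)-Bicuculline methiodide (50 µM), norepinephrine (100 µM), carbamoylcholine (50 µM), dopamine (100 µM), ascorbic acid (40 µM) and serotonin (100 µM). According to the methods of the study a further rest in aCSF followed for both, which the sample labels do not mention. Bicuculline blocks GABA-A receptors, and norepinephrine, carbamoylcholine, dopamine and serotonin act on neuromodulatory receptors. The comparison asks which genes change when the network is driven in this way. No drug was given alone, so their parts in any change cannot be told apart. Auditory cortex from 6 control and 6 cocktail hemispheres of the same 6 mice was sequenced, with between 10601067 and 19768881 reads per library as recovered from the deposited values.

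Activins are dimers of beta chains, secreted ligands of the TGF-beta family. Inhba encodes the chain of activin A and Inhbb that of activin B. The alpha chain encoded by Inha pairs with a beta chain to give inhibin, which opposes activin at the receptors, and follistatin binds activins outside the cell and blocks them. Activin binds a type II receptor (Acvr2a or Acvr2b), which then activates a type I receptor (mainly Acvr1b, or Acvr1c for some ligands), and the signal passes through Smad2 and Smad3 to the nucleus. Acvr1 is a type I receptor of the same family that signals mostly for bone morphogenetic proteins. In the brain, Inhba is known as a gene whose transcription follows strong neuronal activity, and activin A as a factor with effects on synapses and on the survival of neurons.

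All 9 genes were expressed at a level that could be tested, and none differed between cocktail and control at an adjusted p under 0.05 (limma on log2(FPKM + 1) with the mouse as a block, Benjamini-Hochberg adjustment), against 1.5% of the 12032 loci tested. FPKM scales the fragments counted on a gene to its transcript length and to the library's fragments on protein coding genes. Before adjustment, 3 of 9 had a p under 0.05 (Inhba, with a higher mean in the cocktail, and Acvr1b and Inha, with lower means), against 8.05% of loci. With limma's voom on the recovered reads, 0 passed after adjustment and 4 before it. Of all the loci tested, 1.22% were called higher and 0.274% lower. The median log2 fold change of the 9 genes was -0.03 and that of all loci 0.008. The control and cocktail values of all 9 genes overlapped, as they did for all but 0.914% of the loci. The RNA comes from whole pieces of cortex, where fewer cells of a type and less RNA per cell cannot be told apart.

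The tissue was checked against markers. Slc17a7, the vesicular glutamate transporter of cortical excitatory neurons, had 688.7 ± 38.0 FPKM in control and 659.5 ± 23.7 FPKM in the cocktail, and Tbr1, a transcription factor of deep cortical layers, had 45.3 ± 6.07 and 45.2 ± 3.17 FPKM (SD, n = 6 each). Of the marker lists examined (excitatory and inhibitory neurons, astrocytes, microglia, oligodendrocytes, endothelial cells, mural cells, meningeal fibroblasts, choroid plexus, striatum and blood), none had a gene called, and no blood marker was high enough to be tested. Choroid plexus markers summed to at most 1.83 FPKM and Ttr, the most abundant transcript of that tissue, was at most 0.01 FPKM on average in either group. The control library of mouse 1 stood apart from the others. Its reads differed from those of the other control libraries by a chi-square of 27.58 to 37.01 per gene, against 7.1 to 15.82 between the other control libraries. In the cocktail group, pairs with mouse 1 had 15.93 to 25.38, against 8.27 to 17.02 between the others, so those ranges overlapped. Where leaving out mouse 1 ended a call or moved a log2 fold change by more than 1.5 times, both values are given.

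**Figure D1:**
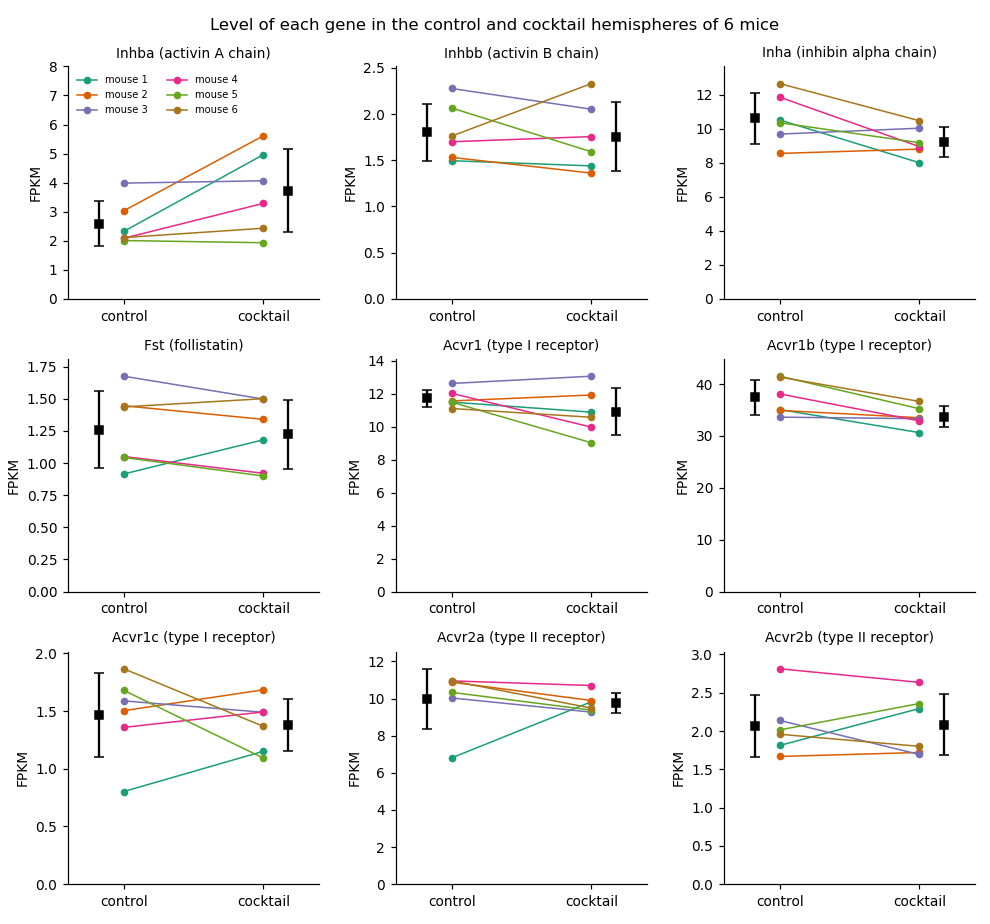
FPKM of each gene (vertical axes, each from 0) in the control and cocktail hemispheres of 6 mice, with a line for each mouse and black squares with bars for the mean ± SD of 6 libraries. Inhba was between 2.01 and 3.98 FPKM in control and between 1.93 and 5.61 FPKM in cocktail hemispheres, and Acvr1b is the one gene whose lines all fall.

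In control hemispheres Acvr1b, Acvr1, Acvr2a and the alpha chain Inha had higher levels than the beta chains, and Acvr2b and Acvr1c did not. Acvr1b had the highest level, 37.4 ± 3.42 FPKM (SD, n = 6), followed by Acvr1 with 11.7 ± 0.532, Inha with 10.6 ± 1.48 and Acvr2a with 9.99 ± 1.61 FPKM (SD, n = 6 each). The other 5 genes lay lower. Inhba was at 2.59 ± 0.778 FPKM, Acvr2b at 2.07 ± 0.4, Inhbb at 1.80 ± 0.308, Acvr1c at 1.47 ± 0.367 and Fst at 1.26 ± 0.299 FPKM (SD, n = 6 each). Of all loci tested, 15.2% had a higher control mean than Acvr1b, 85.8% a higher one than Inhba and 97.1% a higher one than Fst. Between neighbours in this order, 2 steps were larger than the spread between libraries and held in 6 of 6 libraries. Acvr1b exceeded Acvr1 by 1.59 ± 0.17 on the log2(FPKM + 1) scale (SD, n = 6), and Acvr2a exceeded Inhba by 1.62 ± 0.37 (SD, n = 6). For both, a two-sided exact permutation test that flips the signs of the 6 differences gave p = 0.03125, the smallest that 6 libraries allow, and 0.125 after adjustment over the 8 pairs. With 6 libraries a step on its own cannot pass 0.05 after this adjustment, whatever its size. The other 6 steps were of 0.08 to 0.21 with SDs of 0.19 to 0.37. Neighbours within Acvr1, Inha and Acvr2a and within Inhba, Acvr2b, Inhbb, Acvr1c and Fst are therefore not resolved. Genes further apart in the order were not tested. Every control value of Inhba (at least 2.01 FPKM) lay above every control value of Fst (at most 1.68 FPKM). In the cocktail libraries the same 2 steps held in 6 of 6 libraries, at 1.55 ± 0.21 and 1.25 ± 0.44 (SD, n = 6 each).

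The levels were shared unevenly among genes of the same role. Among the type I receptors, Acvr1b made up 73.9 ± 2.2% of the summed FPKM in control and 73.3 ± 3.0% in cocktail hemispheres, and Acvr1c 2.88 ± 0.64% and 3.0 ± 0.44% (SD, n = 6 each). Of the type II receptor transcripts, Acvr2a made up 82.7 ± 3.0% in control and 82.5 ± 2.4% in the cocktail (SD, n = 6 each). Among the 3 chains, Inha held 70.6 ± 6.3% of the summed FPKM in control and 63.1 ± 6.7% in the cocktail, while Inhba held 17.4 ± 5.3% and 25.0 ± 8.7% (SD, n = 6 each). The shares of both groups overlapped for each of these genes, and they are shares of transcript levels, not of protein.

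Inhba, the activin A chain, had the largest difference of the 9 genes. It lies on chromosome 13 of mm10 from 16014475 to 16027211. In control hemispheres of mice 1 to 6 its level was 2.32, 3.03, 3.98, 2.09, 2.01 and 2.11 FPKM. In the cocktail hemispheres of the same mice it was 4.96, 5.61, 4.06, 3.29, 1.93 and 2.43 FPKM. Mice 1, 2 and 4 had clearly higher values in the cocktail, mice 3 and 6 nearly equal ones, and mouse 5 a slightly lower one. The within-mouse differences on the log2(FPKM + 1) scale were 0.84, 0.71, 0.02, 0.47, -0.04 and 0.14. The mean level was 2.59 ± 0.778 FPKM in control and 3.72 ± 1.43 FPKM in the cocktail (SD, n = 6 each), a ratio of 1.43. The log2 fold change was 0.36 (standard error 0.11, 95% interval 0.11 to 0.6 before adjustment), with an unadjusted p of 0.00778 and an adjusted p of 0.248 from limma. Flipping the signs of these 6 differences in an exact permutation test gave p = 0.09375. Only 1.3% of the loci tested had an absolute log2 fold change at least as large. The difference therefore did not pass the test over all loci, and over the 13 alternatives that could be fitted the adjusted p from limma ran from 0.143 to 0.999. Without mouse 1 the log2 fold change was 0.26, and without mouse 5 it was 0.44.

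Few reads lie behind these values, 60 to 284 per library (median 152). Counting error alone would give the control libraries a coefficient of variation of 9.92%, while the coefficient observed was 30.0%, so Inhba varied more between hemispheres than counting error gives. This was not particular to Inhba. Acvr2a varied by 16.1% between control libraries with a counting error of 3.6%, Acvr1c by 25.0% with 7.25% and Inha by 13.9% with 5.88%. Acvr1 lay nearest to its counting error, at 4.54% with 4.16%. The gene model of Inhba in the deposited files is also shorter than the RefSeq model of GRCm38.p6, which spans 16004256 to 16031609, and reads outside the deposited model are not in these values. The deposited models of Acvr2b and Acvr1b also end before the RefSeq ones, by 8642 and 1083 bases, which touches their levels and shares in the same way.

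The sequences before the listed start sites differ in base composition, and which start sites are used in this tissue was not tested. The 250 bases before a start site in RefSeq are given for Inhba, the gene with the largest difference, for its sister chain Inhbb and for Acvr1b, the one gene lower in the cocktail of all 6 mice. They are from the RefSeq promoter table of GRCm38.p6 and run 5′ to 3′ on the strand of the gene, with CG dinucleotides in capitals. The Inhba window is chr13:16011601-16011850 (plus strand), and its start site lies 2624 bases upstream of the start of the deposited gene model but inside the longest RefSeq span of the gene, so it is not the first of its starts. The Inhbb window is chr1:119422249-119422498 (minus strand), and the Acvr1b window is chr15:101173822-101174071 (plus strand), 53 bases upstream of its deposited model.
Inhba: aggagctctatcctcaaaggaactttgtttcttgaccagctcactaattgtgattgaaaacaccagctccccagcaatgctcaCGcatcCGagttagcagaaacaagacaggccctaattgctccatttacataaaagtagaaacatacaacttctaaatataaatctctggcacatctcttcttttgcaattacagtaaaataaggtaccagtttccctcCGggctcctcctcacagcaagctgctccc
Inhbb: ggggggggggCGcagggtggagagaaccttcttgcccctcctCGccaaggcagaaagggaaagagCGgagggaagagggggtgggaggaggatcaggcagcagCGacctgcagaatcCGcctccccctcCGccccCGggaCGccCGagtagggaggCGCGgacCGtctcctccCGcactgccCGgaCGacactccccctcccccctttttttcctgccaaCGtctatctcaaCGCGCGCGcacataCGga
Acvr1b: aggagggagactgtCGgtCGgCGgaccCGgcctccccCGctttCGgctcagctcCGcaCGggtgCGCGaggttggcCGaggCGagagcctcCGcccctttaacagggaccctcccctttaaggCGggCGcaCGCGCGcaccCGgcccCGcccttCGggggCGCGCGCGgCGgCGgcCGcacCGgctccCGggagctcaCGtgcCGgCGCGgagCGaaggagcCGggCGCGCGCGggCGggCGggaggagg
The Inhba window had 3 CG dinucleotides and a GC content of 43.2%, Inhbb had 21 and 68.0%, and Acvr1b had 42 and 78.8%. The windows of Inha and Acvr2b and the Acvr1c window at chr2:58324808-58325057 also lie inside the RefSeq spans of their genes. The other Acvr1c window overlaps the span of its gene in part. The median of all 32851 windows in the table was 6 CG dinucleotides and 52.4% GC. Of all windows, 19.0% had a lower GC content than that of Inhba and 98.3% a lower one than that of Acvr1b. Fst has no window in the table. The cAMP response element TGACGTCA, a site of CREB, was found in 0 of the 9 windows of the other 8 genes (Acvr1c has 2), against 1.55% of all windows. The AP-1 site TGANTCA was also found in 0 of the 9, against 6.75% of all windows. Both motifs read the same on either strand, and the search covered only these 250 bases.

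The other chain genes and Fst differed less between the groups. Inhbb, the activin B chain (chromosome 1, 119415465 to 119422248), ranged from 1.49 to 2.28 FPKM in control (median 1.73) and from 1.36 to 2.33 FPKM in the cocktail (median 1.67). It was higher in 2 of 6 mice, and limma gave a log2 fold change of -0.03 ± 0.071 (standard error), an adjusted p of 0.956 and a 95% interval from -0.18 to 0.13. Inha, the inhibin alpha chain (chromosome 1, 75507077 to 75510354), had 10.5, 8.55, 9.68, 11.8, 10.3 and 12.7 FPKM in control mice 1 to 6 and 8.0, 8.8, 10.03, 8.95, 9.18 and 10.5 FPKM in the cocktail hemispheres. It was lower in mice 1, 4, 5 and 6 and slightly higher in mice 2 and 3. Its log2 fold change was -0.17 ± 0.067 (standard error) and its adjusted p from limma 0.459, with an interval from -0.32 to -0.03 before adjustment. Fst, the activin antagonist (chromosome 13, 114452262 to 114458951), ranged from 0.915 to 1.68 FPKM in control (median 1.24) and from 0.899 to 1.5 FPKM in the cocktail (median 1.26), on 34 to 75 reads per library. Its log2 fold change was -0.02 (interval -0.16 to 0.11, adjusted p = 0.963 from limma), and -0.07 without mouse 1. The pseudocount of 1 shrinks changes at such levels, so the interval of Fst does not exclude larger changes in its raw FPKM. An exon of Fst overlaps the antisense gene Gm47040 by 115 bases, and although the libraries were made with directional kits, whether the FPKM step used the strand is not given in the sources used here.

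Acvr1b, the main type I receptor of activins, was the one gene lower in the cocktail of all 6 mice. It lies on chromosome 15 from 101174125 to 101212601. In control mice 1 to 6 it had 35.1, 34.9, 33.6, 38.1, 41.5 and 41.3 FPKM, and in the cocktail hemispheres 30.6, 33.5, 33.3, 32.9, 35.2 and 36.7 FPKM. The within-mouse differences were between -0.23 and -0.01 on the log2(FPKM + 1) scale, with the smallest in mouse 3. The mean was 37.4 ± 3.42 FPKM in control and 33.7 ± 2.06 FPKM in the cocktail (SD, n = 6 each), a ratio of 0.901. The log2 fold change was -0.14 (standard error 0.046), with an unadjusted p of 0.00937 and an adjusted p of 0.277 from limma. The exact sign-flip permutation test gave p = 0.03125, the smallest that 6 pairs allow. All 6 mice were lower at 2.66% of the loci tested and higher at 3.64%. With 1375 to 2432 reads per library, counting error is 2.34% against an observed variation of 9.15% between control libraries. The adjusted p of Acvr1b was between 0.17 and 0.883 over 14 alternatives.

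The other receptors did not separate the groups either. Acvr1 (chromosome 2, 58446438 to 58566828) ranged from 11.1 to 12.6 FPKM in control (median 11.5) and from 9.02 to 13.1 FPKM in the cocktail (median 10.7), a log2 fold change of -0.1 (interval -0.23 to 0.03, adjusted p = 0.761 from limma). Mice 4 and 5 had the largest differences, -0.25 and -0.32. Acvr1c, which binds activin B and several other ligands (chromosome 2, 58267453 to 58357758), ranged from 0.803 to 1.87 FPKM in control (median 1.55) and from 1.09 to 1.68 FPKM in the cocktail (median 1.43). It was higher in 3 mice and lower in 3, with a log2 fold change of -0.04 (interval -0.22 to 0.14, adjusted p = 0.943 from limma), and -0.1 without mouse 1. An exon of Acvr1c overlaps the antisense gene Gm13544 by 168 bases.

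Acvr2a, the more abundant type II receptor (chromosome 2, 48814109 to 48903264), had 6.8 FPKM in control mouse 1 and 10.03 to 10.95 FPKM in the other 5 control libraries. In the cocktail it had 9.27 to 10.7 FPKM (median 9.65). The difference was 0.47 on the log2(FPKM + 1) scale in mouse 1 and between -0.19 and -0.03 in the other 5 mice, so Acvr2a was lower in 5 of 6. Over all mice the log2 fold change was -0.02 ± 0.080 (standard error; limma, adjusted p = 0.982), and without mouse 1 it was -0.12 (adjusted p = 0.452 from limma). The value of Acvr2a thus rests on the control library of mouse 1. Its exons overlap those of Orc4 on the opposite strand by up to 446 bases. Acvr2b (chromosome 9, 119402501 to 119433506) ranged from 1.67 to 2.81 FPKM in control (median 1.99) and from 1.69 to 2.64 FPKM in the cocktail (median 2.05), on 38 to 81 reads. Mouse 4 had the highest level in both groups. The log2 fold change was 0.01 (interval -0.14 to 0.16, adjusted p = 0.991 from limma), and -0.04 without mouse 1.

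Whether genes of a pair changed differently was tested on the within-mouse differences of their log2 ratios, for 6 pairs. The change of Inhba exceeded that of Fst in 6 of 6 mice, by 0.38 ± 0.32 (SD, n = 6), with p = 0.03125 in the exact sign-flip permutation test and 0.1875 after adjustment over the 6 pairs. It exceeded that of Inha by 0.53 ± 0.46 in 5 of 6 mice (SD, n = 6, exact permutation p = 0.0625) and that of Inhbb by 0.39 ± 0.4 in 5 of 6 mice (SD, n = 6, exact permutation p = 0.09375). Both also had an adjusted p of 0.1875. The receptor ratios moved less. The change of Acvr2a differed from that of Acvr2b by -0.02 (95% interval -0.23 to 0.18), that of Acvr1b from that of Acvr1c by -0.1 (-0.35 to 0.14) and from that of Acvr1 by -0.04 (-0.13 to 0.05). None of the 6 pairs passed 0.05 after adjustment, which a single pair cannot do with 6 mice. Without mouse 1 the change of Acvr1b differed from that of Acvr1c by -0.03, and that of Acvr2a from that of Acvr2b by -0.08.

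**Figure D2:**
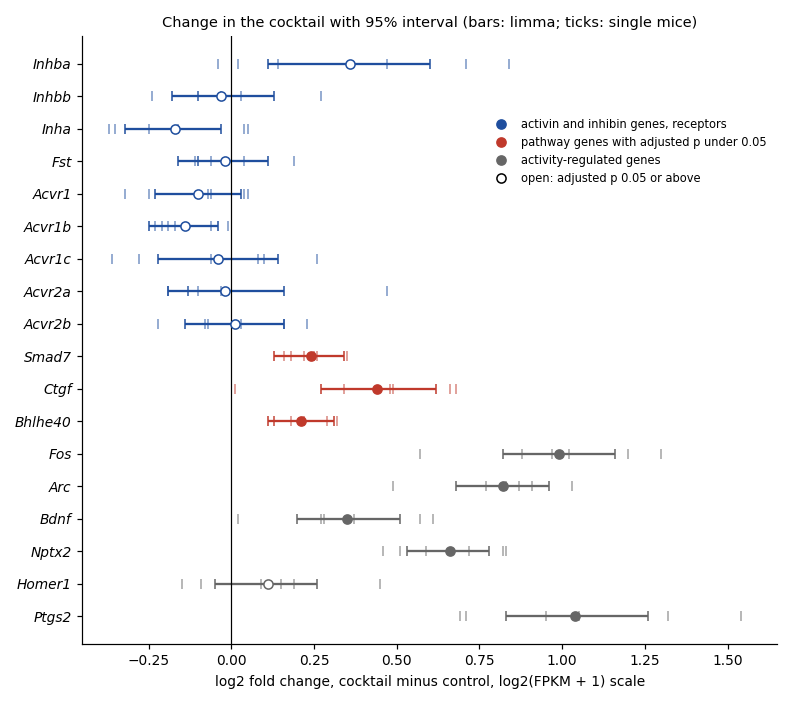
Log2 fold change (horizontal axis, cocktail minus control on the log2(FPKM + 1) scale) with its unadjusted 95% interval from limma, with ticks for the 6 mice. The 9 activin and inhibin genes (blue, open) lie between -0.17 and 0.36, the 3 called pathway genes (red) between 0.21 and 0.44, and the activity-regulated genes (grey) between 0.11 and 1.04.

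Other genes of the pathway were read from a list of 52 genes, of which 36 could be tested. Of these, 3 were called higher and 0 lower, 8.33% in either direction. Of all loci, 1.22% were called higher and 0.274% lower, 1.5% in either direction. The list was chosen with earlier results of these data known, so its share called is no independent test. The median log2 fold change of the 36 genes was 0.007, against 0.008 for all loci. The 3 called genes were Smad7, an intracellular inhibitor that is induced by and shuts off TGF-beta and activin signals, and 2 of the 5 genes listed as known to respond to Smad2 and Smad3, namely Ctgf (connective tissue growth factor) and Bhlhe40 (a transcriptional repressor). Both are also known to respond to many other signals. The other 3 of these 5 genes were not called, with log2 fold changes of 0.11 for Cdkn1a (higher in 5 of 6 mice), -0.03 for Tgfbi (higher in 3) and -0.06 for Pmepa1 (higher in 1). Smad7, Ctgf and Bhlhe40 were each higher in the cocktail of 6 of 6 mice, although their control and cocktail values overlapped. Without mouse 1, 3 pathway genes were called, without the mouse as a block 0, and without mouse 2, mouse 3 or mouse 5 also 0. Without mouse 4, 1 was called.

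Smad7 had 6.47, 7.48, 8.27, 8.92, 8.49 and 9.31 FPKM in control mice 1 to 6 and 7.88, 9.8, 10.1, 10.5, 9.75 and 10.5 FPKM in the cocktail hemispheres, a rise of 0.24 ± 0.049 (standard error) on the log2 scale with an adjusted p of 0.0365 in limma. Its smallest rise was in mouse 6 (0.16) and its largest in mouse 2 (0.35). Ctgf, at 9.39 to 15.6 FPKM in control and 13.5 to 21.5 FPKM in the cocktail, rose by 0.44 on the log2 scale (limma, adjusted p = 0.0132), with almost no difference in mouse 6 (0.01). Bhlhe40 was at 60.3 ± 8.04 FPKM in control and 69.7 ± 6.62 FPKM in the cocktail (SD, n = 6 each) and rose by 0.21 on the log2 scale (limma, adjusted p = 0.0351). Of the 14 alternatives, the call was lost in 8 for Smad7, 5 for Ctgf and 11 for Bhlhe40, while no direction changed. Exons of Ctgf and Bhlhe40 overlap genes on the opposite strand, Gm15270 by 347 and 0610040F04Rik by 118 bases. Markers of meningeal fibroblasts also had higher means in the cocktail. Of the 3 fibroblast markers tested, 0 were called and 3 had an unadjusted p under 0.05, with a median log2 fold change of 0.228. All 4 markers together summed to between 10.3 and 16.7 FPKM in the control libraries and to at least 13.6 FPKM in each cocktail library, and none was at 0 on average. Their part in the rises was not tested.

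Of the other groups of the pathway none had a gene called, and in the group of receptor and Smad signalling Smad7 was the one gene called of 13 tested. The other beta chains were nearly absent, with Inhbe at 0.0935 ± 0.0378 FPKM in control and 0.0693 ± 0.0509 in the cocktail (SD, n = 6 each) on 0 to 5 reads per library. Of the 4 precursor convertases, Furin, which cleaves the precursors of activin chains, had 11.91 ± 0.784 and 11.96 ± 0.881 FPKM (SD, n = 6 each). Of the related receptors, Bmpr2, a type II receptor for bone morphogenetic proteins, was highest with 13.8 ± 2.78 and 14.7 ± 0.762 FPKM (SD, n = 6 each), and its control value in mouse 1 (8.28 FPKM) lay under those of the other mice (14.0 to 15.6). Its log2 fold change was 0.11, and -0.03 without mouse 1. Of the binding proteins and coreceptors 2 of 10 could be tested, and Lefty1, an antagonist of Nodal, had the highest level with 1.48 ± 0.711 and 1.57 ± 1.04 FPKM (SD, n = 6 each). In the signalling group Ppm1a, a phosphatase that acts on Smad2 and Smad3, had the highest level with 55.1 ± 7.08 and 56.6 ± 2.13 FPKM (SD, n = 6 each). Its log2 fold change was 0.05, and -0.01 without mouse 1. Of the other ligands that use activin type II receptors, Gdf1 was listed at 1.96 to 59.5 FPKM in control and 23.3 to 50.0 FPKM in the cocktail. It shares up to 889 bases of exon with Cers1 on the same strand, and its level is uncertain. Its log2 fold change was 0.59 (adjusted p = 0.863 from limma), 0.38 without mouse 1 and -0.11 without mouse 6.

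The change of Inhba was set beside those of 6 genes known to follow neuronal activity. Fos (log2 fold change 0.99), Arc (0.82), Nptx2 (0.66) and Ptgs2 (1.04) rose in all 6 mice, with adjusted p from limma of at most 0.000119. For Fos the values were 230.1 to 400.6 FPKM in control and 568.5 to 753.9 FPKM in the cocktail, which do not overlap. Bdnf, which encodes a neurotrophin, rose by 0.35 on the log2 scale (adjusted p = 0.0338 from limma, 0.864 without the mouse as a block, 0.0788 without mouse 1, and above 0.05 in 7 of the 14 alternatives). Homer1, a synaptic scaffold gene, had a log2 fold change of 0.11 (adjusted p = 0.783 from limma), and 0.04 without mouse 1. The change of Inhba was smaller than that of Fos in 6 of 6 mice, by 0.63 ± 0.24 on the log2 scale (SD, n = 6), and smaller than that of Ptgs2 in 6 of 6 mice, by 0.68 ± 0.16 (SD, n = 6). It was larger than that of Homer1 in 6 of 6, by 0.25 ± 0.19 (SD, n = 6). Each of the 3 had p = 0.03125 in the exact sign-flip permutation test and 0.0625 after adjustment over the 6 genes, so none passed 0.05, which needs several genes at the smallest p. Against Bdnf the difference was 0.01, with a 95% interval from -0.25 to 0.26, and -0.05 without mouse 1. The pseudocount of 1 shrinks the change of Inhba more than those of genes with higher levels. With a pseudocount of 0.1 the log2 fold change of Inhba was 0.46. It then differed from that of Fos by -0.54, of Ptgs2 by -0.62, of Homer1 by 0.35 and of Bdnf by 0.08.

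**Figure D3:**
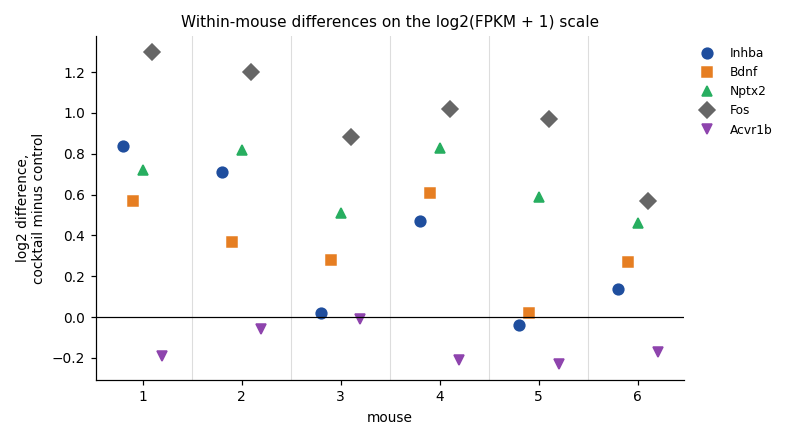
Within-mouse log2 differences (vertical axis, cocktail minus control on the log2(FPKM + 1) scale) of Inhba, Bdnf, Nptx2, Fos and Acvr1b in each of the 6 mice (horizontal axis). Inhba runs from -0.04 in mouse 5 to 0.84 in mouse 1, while Fos is above 0.5 in every mouse and Acvr1b is below 0 in every mouse.

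Among the 180 loci called, the 5 whose within-mouse differences lay nearest to those of Inhba were Spty2d1, Sat1, Srsf7, Rgs4 and Scg2. Their mean absolute distance from Inhba over the 6 mice was 0.183, 0.184, 0.186, 0.187 and 0.187 on the log2 scale, against a median of 0.335 over the called loci. The 5 were chosen for this likeness, so that they share with Inhba the largest difference in mouse 1 (0.65 to 0.84), whose control library stood apart, follows from the choice. They differed from Inhba in mouse 2, where their differences (0.2 to 0.39) were smaller than that of Inhba (0.71). In mouse 5 all 5 were higher in the cocktail (0.23 to 0.37), while Inhba was nearly equal in both hemispheres (-0.04). Inhba had only 77 control and 98 cocktail reads there, and the sign of so small a difference is not resolved.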

How the data were processed

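Poly-A RNA of 12 libraries was sequenced as single reads of 50 bp. Per the labels and methods, the authors took out ribosomal reads (BWA 0.6.1), aligned the rest to mm10 (TopHat 1.4.1, 1 placement for each read) and computed bias-corrected FPKM in Cufflinks 1.3.0. The FPKM values were deposited with a confidence interval for each locus and library, and were used as deposited. The deposited table of the authors' own comparison (fold changes, p-values and group means) was not used. The interval spans 2 Poisson standard deviations, so reads were recovered from it, and of 36412 values under 20 reads, 82.8% were whole within 0.05. Summed FPKM was 290155 to 321759 per library. Apart from such loci, the deposited intervals and the counting errors cover counting only.

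The fit used limma 3.58.1 (R 4.3.3) on log2(FPKM + 1) at loci whose mean FPKM was 1 or more, modelled mouse and treatment, and let the variance follow a trend. Alternatives dropped the block, the filter, the trend or 1 mouse, or used another pseudocount, filter, scaling or voom. Single differences were tested with exact two-sided sign-flip permutation tests. Mouse numbers in the labels pair the hemispheres (deviations from group means correlated at 0.216 to 0.406 across genes within mice, 6 pairs, and at -0.42 to 0.445 between different mice, median -0.071, 30 pairs). Libraries of a group differed by more than sampling noise. Coordinates are from the files, counted from 1, exon overlaps from GENCODE M21 and promoters from RefSeq (8 of 9 genes matched). The genes and lists were chosen with earlier results of these data known, and 1 gene of the pathway list is not reported here and was left out of its counts. The pathway genes named are those called and, in groups with under 3 calls, the one with the highest mean FPKM. Python 3.11.15 and matplotlib 3.10.9 drew the figures.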

Additional observations from a re-analysis of the deposited data

Results flagged for a closer look

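Among 72 sets of 6 values, 6 had a value set off from the rest (chance gives 3.6), and 5 of these 6 values were those of mouse 1. The sets are not separate, since the within-mouse differences are computed from the levels. For Acvr2a and for Bmpr2, the flagged level and the flagged difference share the control value of mouse 1. The control level of Acvr2a in mouse 1 was 6.8 FPKM, below 10.03 to 10.95 in the other mice by 0.778 of the whole range, and its within-mouse log2 difference was 0.47, above -0.19 to -0.03 elsewhere. For Bmpr2 the control level in mouse 1 was 8.28 FPKM, below 14.0 to 15.6 (0.777 of the range), and its log2 difference was 0.8, above -0.09 to 0.05. With the cocktail, mouse 1 had 7.88 FPKM of Smad7, below 9.75 to 10.5, and mouse 3 had 37.0 FPKM of Ptgs2, below 44.1 to 46.5. What set these values apart was not tested.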

How the results depend on the processing

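Under all 14 alternatives the number of the 9 genes called stayed at 0, with 1 to 4 at an unadjusted p under 0.05. The adjusted tests of levels, ratios and activity genes cannot show stability at 6 mice, since a single one of them cannot pass 0.05. Without the replicate block, 88 loci and 0 of the pathway genes were called, against 180 and 3 with it, and the adjusted p of Nptx2 was 0.0519. With voom on the recovered reads the numbers were 118 and 1, and with no filter 0 pathway genes were called. With each mouse left out, 104 to 181 loci and 0 to 3 pathway genes were called, on fewer samples. Without mouse 2, mouse 3 or mouse 5, 0 pathway genes were called, and without mouse 4, 1. Otherwise the cause was not tested. Some log2 fold changes changed sign, and none of them was called. Over all mice, all of these but that of Gdf1 (0.59, and -0.11 without mouse 6) were at most 0.11 in size. With each mouse left out they ran from -0.09 to 0.01 for Inhbb, -0.1 to 0.02 for Acvr1c, -0.12 to 0.02 for Acvr2a, -0.04 to 0.05 for Acvr2b, -0.11 to 0.93 for Gdf1, -0.2 to 0.18 for Lefty1, -0.04 to 0.04 for Furin, -0.03 to 0.15 for Bmpr2 and -0.01 to 0.08 for Ppm1a. With voom they were 0.05 for Acvr2a, -0.02 for Acvr2b and -0.05 for Furin, and Furin was 0.00 under median-of-ratios scaling and quantile normalization. A mean FPKM of at least 5 left 4 of the 9 genes. Read numbers limit Fst, Acvr2b and Inhbb most.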
